A study of Homo sapiens with 6 samples.

Results

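MAN1A2 encodes a Golgi alpha-mannosidase, and its transcripts also gave rise to circular RNAs (circRNAs) in Ishikawa cells, a human endometrial carcinoma line. In a circRNA a downstream splice donor is ligated to an upstream splice acceptor, and the reads that cross this back-splice junction were counted. All rows of the deposited circRNA table whose host gene was MAN1A2 were taken: 6 of 4814 circRNAs, with 148 of 26060 junction reads. The gene was chosen by its number of junction reads in these libraries, so its total and its rank are given as a description with no test. The study set MPA-treated cells (3 libraries) against cells with no treatment (3 control libraries). Dose, duration and the full name of MPA are missing from the labels. Nothing says that the 3 libraries of a group are separate cultures, and the p-values therefore reflect library-to-library spread, which may be technical. In RNA from bulk cells, fewer cells that make a circRNA and less of it per cell cannot be told apart.

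The MAN1A2 protein trims mannose residues from the N-linked sugar chains of glycoproteins as they pass through the Golgi. This trimming of high-mannose chains is the step that opens the way to hybrid and complex N-glycans, which MGAT1 begins to build. Circular RNAs of such coding exons have no free ends, resist exonucleases and often come from exons that lie next to long introns.

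Each MAN1A2 circRNA corresponded to a single run of whole exons. All 6 carry a circBase identifier and are annotated as exonic on the plus strand of chromosome 1 (hg19). Among 5 GENCODE v29 transcripts of the gene, a transcript of 13 exons matched every circRNA in both predicted length and genomic span, with exactly 1 run of exons each. The circles fell into 2 sets that differ in the end they share. In the first set 4 circRNAs began at exon 2, at position 117944808: hsa_circ_0000117 ran to exon 4 (117957453, 472 bases), hsa_circ_0000118 to exon 5 (117963271, 553 bases), hsa_circ_0000119 to exon 6 (117984947, 648 bases) and hsa_circ_0000120 to exon 8 (118009049, 866 bases). In the second set 2 circRNAs ended with exon 12, at position 118045592: hsa_circ_0002059 began at exon 7 (118003111, 843 bases) and hsa_circ_0110604 at exon 9 (118035769, 625 bases). No listed circle held exon 1 or exon 13, and hence none held the start codon, the stop codon or a UTR.

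The junction sequences show what the members share and where they part. Each line gives the last 25 bases of the donor exon followed by the first 25 bases of the acceptor exon, 5′ to 3′ on the plus strand, from the GENCODE v29 transcript. Capitals mark the side shared within a set, which is the start of exon 2 in the first 4 and the end of exon 12 in the last 2.
hsa_circ_0000117: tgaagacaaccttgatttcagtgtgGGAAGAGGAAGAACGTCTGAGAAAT
hsa_circ_0000118: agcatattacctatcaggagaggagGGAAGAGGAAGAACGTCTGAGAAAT
hsa_circ_0000119: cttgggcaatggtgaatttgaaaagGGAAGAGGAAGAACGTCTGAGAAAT
hsa_circ_0000120: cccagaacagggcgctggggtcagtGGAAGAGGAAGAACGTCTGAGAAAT
hsa_circ_0002059: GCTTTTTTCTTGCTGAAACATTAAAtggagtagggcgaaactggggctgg
hsa_circ_0110604: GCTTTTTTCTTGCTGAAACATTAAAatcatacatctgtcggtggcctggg

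The lower-case side tells the members of a set apart. The 3 most read members differ only in where they stop, so the exons that separate them are also given, with exon 5 (81 bases) in lower case and exon 6 (95 bases) in capitals. hsa_circ_0000117 holds neither, hsa_circ_0000118 holds exon 5, and hsa_circ_0000119 holds both.
exons 5 and 6: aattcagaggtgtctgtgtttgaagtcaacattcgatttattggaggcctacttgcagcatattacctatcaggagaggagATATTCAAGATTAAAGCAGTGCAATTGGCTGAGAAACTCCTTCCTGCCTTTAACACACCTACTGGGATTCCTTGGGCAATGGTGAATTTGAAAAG

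**Figure D1:**
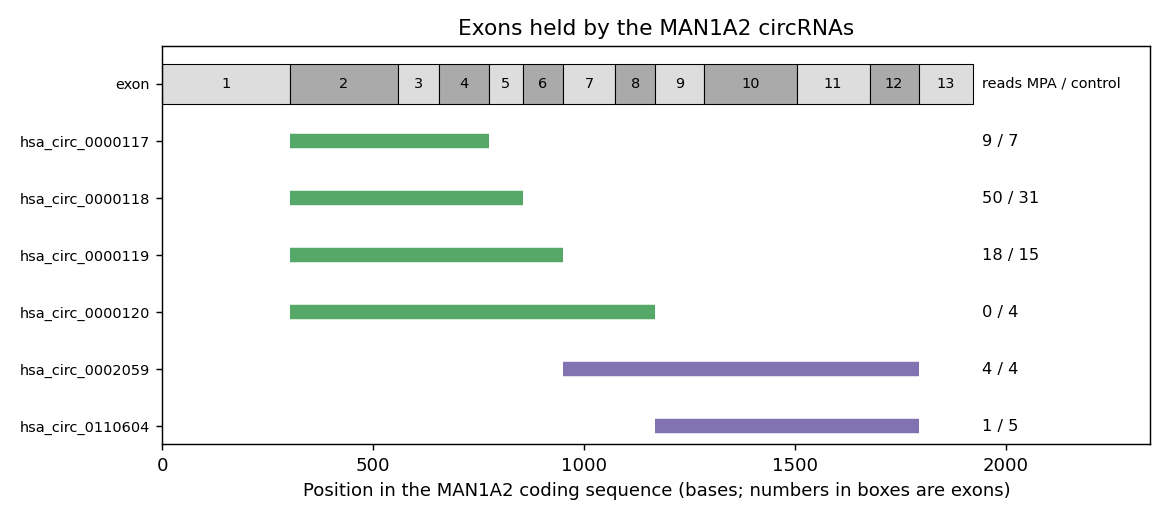
Exons held by each MAN1A2 circRNA, drawn to scale along the coding sequence (x axis, bases), with numbered exon boxes on top and junction reads at the right as the sum of 3 MPA and of 3 control libraries. The 4 circles in green start together at exon 2 and the 2 in purple end together with exon 12.

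The ends of the circles lay beside the long introns of the gene. Of the 12 introns, 6 flank an end of a listed circle, and these include the 5 longest. Intron 1, before the shared exon 2 start, is the longest at 33700 bases, and the introns after exons 5, 6, 8 and 12 measure 21581, 18163, 26719 and 19854 bases. Only the end of hsa_circ_0000117 at exon 4 borders a shorter intron, of 5737 bases. The 6 introns with no circle end range from 2399 to 9067 bases. The sets also meet at introns: the intron after exon 6 follows hsa_circ_0000119 and precedes hsa_circ_0002059, and the intron after exon 8 follows hsa_circ_0000120 and precedes hsa_circ_0110604. These lengths are those of the GRCh38 annotation and are a description of 1 gene, with no test.

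**Figure D2:**
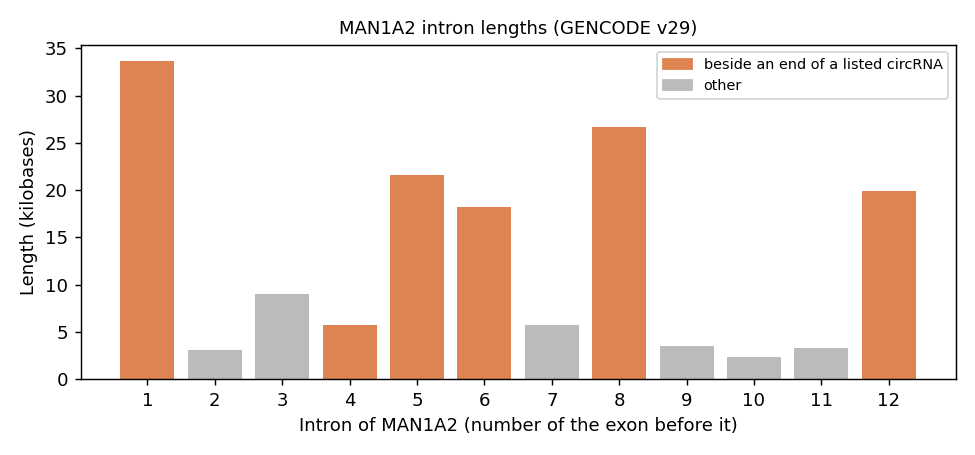
Length of each MAN1A2 intron (y axis, kilobases) by the number of the exon before it (x axis), with introns beside a circle end in orange and the others in grey. The 5 tallest bars, from 18163 to 33700 bases, are all orange.

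The circles also differ in reading frame. hsa_circ_0000119 and hsa_circ_0002059 have lengths that are multiples of 3, and in both the frame of the host protein runs through the whole circle and across the junction without a stop codon. In the other 4 the frame shifts at the junction, and the first stop codon is complete 27 bases past it in hsa_circ_0000117 and hsa_circ_0000118, 20 bases past it in hsa_circ_0000120 and 40 bases past it in hsa_circ_0110604. The 2 circles with an open frame held 41 of the 148 reads (27.7%). This describes the sequence only; translation was not measured. The guanine and cytosine content of the circles ran from 39.8% in hsa_circ_0000117 to 44.1% in hsa_circ_0002059.

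Most MAN1A2 reads came from circles that begin at exon 2. hsa_circ_0000118 had 81 reads over the 6 libraries (54.7% of the gene), hsa_circ_0000119 had 33 (22.3%) and hsa_circ_0000117 had 16 (10.8%). These 3 were read in all 6 libraries. hsa_circ_0002059 had 8 reads in 4 libraries, hsa_circ_0110604 had 6 in 3 libraries and hsa_circ_0000120 had 4 in 2 libraries. Each circle was counted at its 1 junction and not along its length. Whether length affects detection was not tested. Over the whole table hsa_circ_0000118 stood at rank 11 of 4814 circRNAs by reads, where the median circRNA had 3.

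Within libraries the order of the first 3 circles was steady and that of the last 3 was not. hsa_circ_0000118 was above hsa_circ_0000119 in 5 libraries and level with it in control 1, and hsa_circ_0000119 was above hsa_circ_0000117 in 5 libraries and level with it in MPA 3. hsa_circ_0000117 was above hsa_circ_0002059 in 4 libraries. Below that, neighbours changed places: hsa_circ_0002059 was above hsa_circ_0110604 in 3 libraries, and hsa_circ_0110604 above hsa_circ_0000120 in 2. The ranges over the 6 libraries overlapped for every pair of neighbours in the order.

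Counted by exon, the reads fall away between exons 5 and 6. Exons 2, 3 and 4 lie in circles with 134 reads (90.5%) and exon 5 in circles with 118 (79.7%), but exon 6 lies in circles with only 37 (25%). Exons 7 and 8 lie in circles with 12 reads, and exons 9 to 12 in circles with 14. Exon 6 lay in circles with 18 of 82 MAN1A2 reads with MPA and 19 of 66 in control. This count assumes that a circle holds every exon between its ends, as the predicted lengths do.

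Levels of the circles were then set against the treatment. Neither the summed junction reads of the gene nor any of the circles tested passed the threshold. All 4 fold changes had intervals that include 0 on the log2 scale. hsa_circ_0000118 had 20, 14 and 16 reads in MPA libraries 1 to 3, against 6, 13 and 12 in control libraries 1 to 3. Every MPA library was above every control library in reads, as for 8.79% of the 91 circRNAs tested. The MPA libraries also held more junction reads in all, with 4468, 4339 and 5454, against 4316, 3740 and 3743 in control libraries. As a share of those totals hsa_circ_0000118 took 0.448%, 0.323% and 0.293% with MPA, against 0.139%, 0.348% and 0.321% in control, so that the groups overlapped and control 1 stood lowest; on this scale 3.3% of the 91 circRNAs had every MPA library above every control library. Its log2 fold change was 0.47 (SE 0.432, 95% interval -0.38 to 1.32, n = 3 each; edgeR, adjusted p = 0.936).

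hsa_circ_0000119, a single exon longer, had 8, 7 and 3 reads with MPA, against 6, 2 and 7 in control. The groups overlapped, with MPA 3 and control 2 lowest. Its log2 fold change was 0.05 (SE 0.673, 95% interval -1.27 to 1.38; edgeR, adjusted p = 0.973). Of the 91 circRNAs tested, 0 passed an FDR of 0.05 (0%), with 2 at an unadjusted p under 0.05, and DESeq2 gave 0, also with 2 at an unadjusted p under 0.05. The median log2 fold change of the 91 was 0.14. The intervals of both circles include a 2-fold change upwards, so a rise of that size was not excluded. For hsa_circ_0000119 the interval also includes a 2-fold change downwards.

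**Figure D3:**
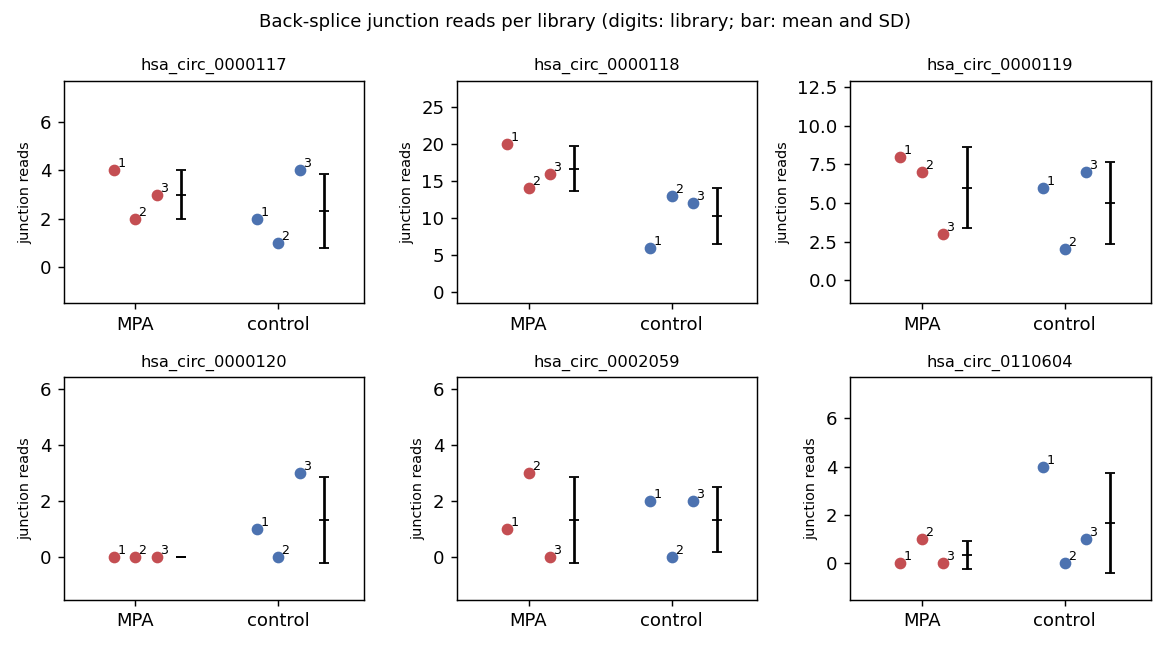
Junction reads (y axis) of each MAN1A2 circRNA in MPA libraries (red, left) and control libraries (blue, right), where each point is a library with its number beside it and the bar gives the mean and SD of 3 libraries. For hsa_circ_0000118 the lowest MPA library (14 reads) is above the highest control library (13 reads), and the 3 rarest circles have 0 to 4 reads per library.

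Of the 6 circles 2 reached the minimum mean of 5 reads; the other 4 did not and were not tested in that fit. hsa_circ_0000117 had 4, 2 and 3 reads with MPA, against 2, 1 and 4 in control, a ratio of read shares of 1.06 (95% counting interval 0.353 to 3.36). hsa_circ_0000120, the longest circle, had 0 reads in each MPA library, against 1, 0 and 3 in control. With 0 of 14261 MPA reads its share could be up to 0.0210%, on a floor of 3 counts over the group. The control share of 0.0339% was 1.61 times this floor, with the control reads taken as exact. An exact interval on the same reads reaches a ratio of 1.25 for MPA over control, so counting error alone allows an equal share.

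The circles ending with exon 12 were rare and scattered. hsa_circ_0002059 had 1, 3 and 0 reads with MPA, against 2, 0 and 2 in control (share ratio 0.827, 95% counting interval 0.154 to 4.44). hsa_circ_0110604 had 0, 1 and 0 with MPA, against 4, 0 and 1 in control (0.165, 0.00350 to 1.48). Together they held 1, 4 and 0 reads with MPA, against 6, 0 and 3 in control (0.460, 0.121 to 1.53). All these intervals include 1 and cover counting error only.

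Summed over its 6 circles, MAN1A2 had 33, 27 and 22 reads with MPA, against 21, 16 and 29 in control. The groups overlapped, with control 3 above MPA 2 and MPA 3, whereas 8.33% of the 180 host genes tested had every MPA library above every control library in reads and 3.33% had this in their share of junction reads. The log2 fold change of the sum was 0.10 (SE 0.319, 95% interval -0.53 to 0.73, n = 3 each; edgeR, adjusted p = 0.946), and 0 of 180 host genes passed (0%; 3 at an unadjusted p under 0.05 with edgeR, and with DESeq2 0 passed and 0 were at an unadjusted p under 0.05). This interval corresponds to a fold of 0.694 to 1.65. With a spread estimated partly from the other host genes, it excludes a 2-fold change of the summed junction reads in either direction. Such an exclusion held for 20 of the 180 host genes. The messenger RNA of MAN1A2 is not part of these counts. As a share of all junction reads MAN1A2 took 0.739%, 0.622% and 0.403% with MPA, against 0.487%, 0.428% and 0.775% in control. The means were 0.588% ± 0.170 with MPA and 0.563% ± 0.186 in control (SD, n = 3 each; two-sided exact permutation p = 1, where the smallest p the design allows is 0.1).

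Reads were also summed by back-splice end, over all circRNAs that use the same splice site. The exon 2 acceptor had 32, 23 and 22 reads with MPA, against 15, 16 and 26 in control, with control 3 above MPA 2 and MPA 3. Of the 227 ends tested, 6.61% had every MPA library above every control library in reads and 2.64% in their share of junction reads. Its log2 fold change was 0.20 (SE 0.354, 95% interval -0.51 to 0.91; edgeR, adjusted p = 0.939), and 0 of 227 back-splice ends passed (0%; 3 at an unadjusted p under 0.05 with edgeR, and with DESeq2 0 passed and 3 were at an unadjusted p under 0.05). The exon 12 donor had a mean of 2.33 reads and was below the minimum for this fit.

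**Figure D4:**
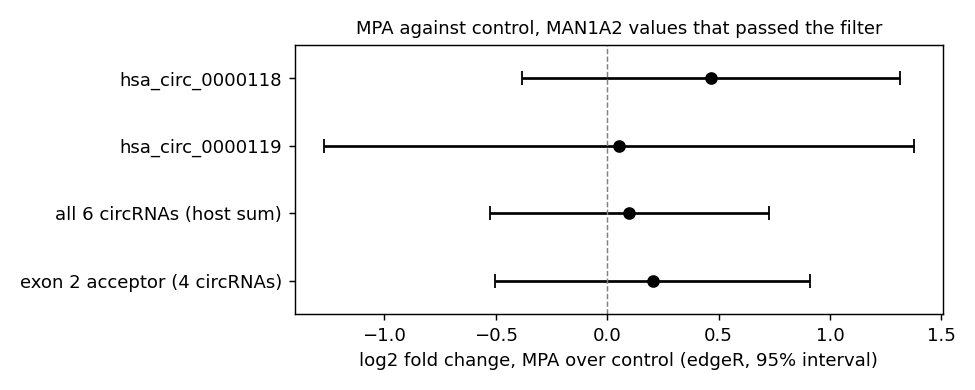
Log2 fold changes of MPA over control (x axis) with 95% intervals from edgeR for the 2 circles, the host sum and the exon 2 acceptor that had a mean of at least 5 reads. All 4 intervals cross 0; the host sum has the narrowest, from -0.53 to 0.73.

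The make-up of the MAN1A2 circles varied widely between control libraries. hsa_circ_0000118 held 60.6%, 51.9% and 72.7% of the gene's reads in MPA libraries 1 to 3, with exact 95% binomial intervals of 42.1% to 77.1%, 31.9% to 71.3% and 49.8% to 89.3%. In control libraries 1 to 3 it held 28.6% (11.3% to 52.2%), 81.3% (54.4% to 96.0%) and 41.4% (23.5% to 61.1%). Control 1 and control 2 thus lie at the lower and the upper extreme of the 6 libraries, and their intervals do not overlap. The means were 61.7% ± 10.5 with MPA and 50.4% ± 27.5 in control (SD, n = 3 each; two-sided exact permutation p = 0.5, adjusted p = 1 over 3 shares). The exon 2 acceptor held 97.0%, 85.2% and 100% of the reads with MPA, against 71.4%, 100% and 89.7% in control, with means of 94.1% ± 7.83 with MPA and 87.0% ± 14.5 in control (SD, n = 3 each; two-sided exact permutation p = 0.7, adjusted p = 1 over 3 shares). MPA 3 and control 2 held no read of the second set.

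**Figure D5:**
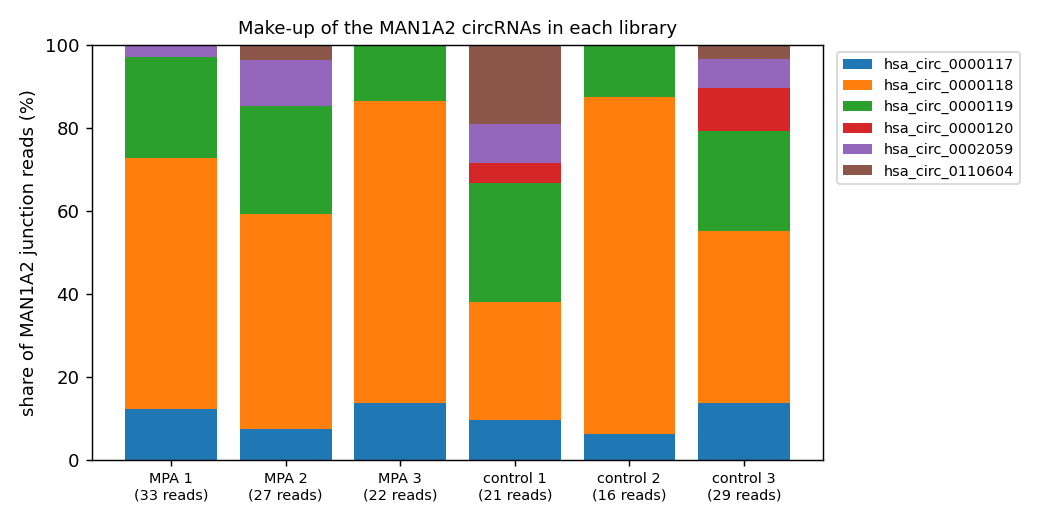
Share of MAN1A2 junction reads (y axis, percent) held by each circRNA in each library (x axis, with the number of reads), MPA libraries on the left. The orange band of hsa_circ_0000118 is narrowest in control 1 (28.6%) and widest in control 2 (81.3%), and the MPA libraries lie between them.

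Set beside other genes, MAN1A2 was among the hosts with the most circular reads. Of 2531 named host genes, 5 had more junction reads and 60 had more circRNAs. Among the 159 hosts with at least 5 circRNAs, the most read circle held a median of 36.1% of its gene's reads (quartiles 27.6% and 47.1%), against 54.7% for MAN1A2. The most used acceptor held a median of 54.5%, against 90.5% for MAN1A2, a share that 8 of the 159 hosts reached, MAN1A2 included. A fan of 4 or more circles at 1 acceptor occurred in 42 of the 159 hosts (26.4%), up to 8 circles. These are descriptions over hosts and were not tested. For the 4 circles of the first set the authors' table names prostate cancer as an associated disease, and hsa_circ_0000120 has further entries; for the second set it names none.

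By its profile over the 6 libraries, MAN1A2 was most like the host genes LARP4, LRCH3, ARHGAP12, DNA2 and ATXN10. Pearson's r of log2 CPM (prior count 2) was 0.949 for LARP4, an RNA-binding protein of the La-related family, and 0.907 for LRCH3, a protein with leucine-rich repeats. It was 0.872 for ARHGAP12, 0.869 for DNA2, a nuclease and helicase, and 0.858 for ATXN10, ataxin 10. LARP4 had 12, 10 and 7 reads with MPA, against 9, 5 and 13 in control, high where MAN1A2 was high in MPA 1 and control 3. The 5 were the highest of 179 host genes compared, whose median r was 0.00632, and with 6 points that share their libraries these values describe the likeness only. None of the 5 belongs to the N-glycan list.

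MAN1A2, chosen by its number of reads, gave more circular reads than any other listed gene of N-glycan synthesis and processing. Of 73 genes on a list of this pathway, 21 had a circRNA in the table used here, with 44 circRNAs and 306 reads. MAN1A2 alone gave 48.4% of these reads. The 20 other genes held 158 reads, and how this compares with host genes at large was not tested. MAN1A1, MAN1B1 and MAN1C1, which encode related mannosidases, were looked up by name and have no values to give here. With the mean of at least 5 reads only MAN1A2 was tested. With a mean of at least 2, 7 list genes were tested, 0 passed edgeR at an FDR of 0.05 (smallest adjusted p = 0.987) and 0 of all 565 host genes passed (0%, 19 at an unadjusted p under 0.05). Of the 7, which include MAN1A2 itself, 5 had log2 fold changes above 0 and 2 below. The 5 include UGGT1, which passed this filter only through its MPA reads. In the fit with a mean of at least 5 reads, 91 of 180 host genes were above 0 and 89 below. The median of the 7 was 0.20, the value of GANAB (SE 0.970), against 0.01 over all 565. This difference was not tested.

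Among these genes UGGT1, the folding sensor that returns a glucose to misfolded glycoproteins in the endoplasmic reticulum, had 4, 2 and 11 reads with MPA, against 0, 1 and 0 in control. Every MPA library was above every control library, as for 6.37% of the 565 host genes, and most of its reads came from MPA 3. UGGT1 met the minimum mean of 2 reads only through MPA (17 reads, against 1 in control). Its separation and the ratio that follows are therefore a description, not support for a change. Its ratio of read shares was 14.1 (95% counting interval 2.20 to 588), and it did not pass the test (edgeR, adjusted p = 0.987). Its relative UGGT2 had 2, 4 and 5 reads with MPA, against 3, 1 and 2 in control. STT3B, a catalytic subunit of the oligosaccharyltransferase that attaches the sugar chain, had 1, 2 and 7 reads with MPA, against 5, 2 and 5 in control.

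GANAB, the glucosidase II subunit that trims glucose before mannosidases act, had 5, 3 and 3 reads with MPA, against 4, 3 and 1 in control. MAN2A1, the Golgi mannosidase that acts after MGAT1, had 0, 5 and 2 with MPA, against 3, 3 and 5 in control. MANBA, a lysosomal beta-mannosidase, had 4, 3 and 2 with MPA, against 4, 1 and 0 in control. ST3GAL6, a sialyltransferase, had 5 reads with MPA and 3 in control, and the chaperone calnexin (CANX) had 5 with MPA and 2 in control. In the 7 named genes other than UGGT1 the groups overlapped, and the counting interval of each ratio of read shares includes 1.

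The labelled cell type could be checked only through circular reads of marker genes. Of 8 epithelial markers 3 had a circRNA (CDH1, PAX8 and EPCAM), with 7 reads with MPA and 1 in control. Of 8 stromal markers only FBN1 had a circRNA, with 2 reads with MPA and 1 in control. No reads were counted here for the 4 endothelial and 4 immune markers. Marker counts this low do not describe the makeup of the cells, and their part in any MAN1A2 value was not tested.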

How the data were processed

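Values are raw counts of reads over each circRNA's junction in each library, as the authors deposited them, per the file headers. CASAVA 1.8, BWA and hg19 appear in the submitters' processing notes, with no role for any of them. No circRNA caller was given in the sources used here. Positions are those of the table, on hg19, with starts counted from 1. Host names, circBase identifiers and predicted lengths, another deposited column in bases, are the authors' annotation. A further 6 columns, of log CPM, were left aside, and 10 circRNAs with no host name (0.0806% of reads) entered no host sum. Totals per library ran from 3740 to 5454 reads; at 3740 a count of 0 allows a share of up to 0.0802% (3 counts). Intervals and floors cover counting error only.

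Rows with a mean of at least 5 reads were fitted with edgeR 4.0.16 (R 4.3.3; TMM, library totals of all circRNAs, a group term, robust quasi-likelihood, prior count 0 for fold changes, Benjamini-Hochberg adjustment, FDR 0.05), as circRNAs, host gene sums and sums per back-splice end. Standard errors were computed back from p. In the quasi-likelihood fit the spread of a row is estimated partly from the other rows tested. Its interval therefore does not rest on that row's libraries alone. The fits were tested on simulated data with planted changes larger than the MAN1A2 fold changes. How often changes as small as these are found was not tested. For shares, library labels were permuted exactly (two-sided). DESeq2 1.42.0, other scalings, other filters, a replicate block and leaving out each library were the alternatives. Exons were assigned by predicted length and span within GENCODE v29 transcripts, and no coordinate was carried between builds. The counts of no library repeat those of another of its group: chi-square tests gave p of at most 0.00581. Across groups the same test gave p from 7.87e-06 (MPA 2 and control 3) to 0.0602 (MPA 3 and control 3). The most alike pair thus crosses the groups. These tests cannot tell whether libraries share a culture.

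The gene, the pathway and marker lists and the tests were chosen with earlier results of these data known. All 6 circRNAs, the 8 pathway genes with most reads besides MAN1A2 and 3 related mannosidases, and the 5 host genes with the highest correlation were named by rule; older symbols of pathway and marker genes were looked up in RefSeq (GRCh38.p14). Python 3.11.15, scipy 1.17.1, pandas 2.3.3, numpy 2.4.6 and matplotlib 3.10.9 were used for the other steps.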

Additional observations from a re-analysis of the deposited data

How the results depend on the processing

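With each library left out in turn, 0 to 1 circRNAs, 0 to 1 host genes and 0 to 2 back-splice ends passed. Those calls came without control 2, and all belonged to RAB3IP. The 2 ends are the acceptor and the donor of the called circRNA, so its reads enter each of these calls. None of the calls was a MAN1A2 value. The log2 fold change ran from 0.19 (without MPA 1) to 0.71 (without control 2) for hsa_circ_0000118, from -0.32 to 0.39 for hsa_circ_0000119 (below 0 without MPA 1, MPA 2 or control 2, at -0.32, -0.13 and -0.29), from -0.10 to 0.31 for the MAN1A2 sum (below 0 without MPA 1, control 1 or control 2, at -0.10, -0.011 and -0.062) and from -0.061 to 0.52 for the exon 2 acceptor (below 0 without MPA 1); edgeR adjusted p values ran from 0.897 to 0.999. The difference ran from -0.0502 to 0.131 percentage points for the MAN1A2 share (below 0 without MPA 1, control 1 or control 2, at -0.0502, -0.0132 and -0.0426), from 0.414 (without control 1) to 26.8 (without control 2) for the share of hsa_circ_0000118, and from -0.776 to 13.5 for the exon 2 acceptor share (below 0 without control 1). The cause was not tested. The other scalings, filters and DESeq2 changed no direction and gave 0 calls. Whether replicate numbers pair the libraries was not tested. Correlations of deviations from the group mean ran from -0.0779 to 0.322 for same-numbered libraries and from -0.273 to 0.106 for differently numbered ones. The replicate block gave 0 calls. Its log2 fold changes were 0.46 for hsa_circ_0000118, 0.05 for hsa_circ_0000119, 0.10 for the MAN1A2 sum and 0.20 for the exon 2 acceptor. The 4 circles with a mean under 5 reads were below the minimum of the main edgeR fit. With no filter, their edgeR adjusted p values ran from 0.545 to 0.962.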
